A study of Mus musculus with 6 samples.

Results

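The leukocyte integrins and their ligands were read from RNA sequencing of mouse articular cartilage as 10 genes among the 34709 of the table: the alpha chains Itgam, Itgal, Itgax and Itga4, the beta chains Itgb2, Itgb1 and Itgb7, the ligands Icam1 and Icam2, and the integrin activator Fermt3. They were chosen by gene symbol, each symbol matched 1 gene, and all 10 passed the filter on low values (a mean of at least 0.5 FPKM, the fragments of a gene divided by its transcript length and by the size of the library). There were 3 libraries labelled KO, from knockout mice, and 3 labelled wildtype, and by the study's methods the animals were male and 18 months old. No treatment was named for either group, no cell type was named for the knockout, and the labels did not say whether the samples of a group were separate animals, so p-values measure only the spread between these samples. KO replicates 2 and 3 differed far less than any other pair of libraries, with a noise ratio of 5.77 against 23.7 to 85.4 in the other 14 pairs, where sampling of single reads gives 1, and were averaged as 1 sample. If a deposited count of 4 stood for 1 fragment, these ratios became 1.44 against 5.93 to 21.3. The comparison therefore had 2 KO and 3 wildtype samples.

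The library labelled KO replicate 1 stood apart from the other KO libraries. On the principal component that held 45.9% of the variance it scored -24.6, beside -26.2 to -23.9 in wildtype and 49.6 to 50.7 in KO replicates 2 and 3. Results that rest on it are given with and without it. Total counts ran from 52268311 to 63331135 per library. Among the 12 markers of the labelled tissue, Prg4 and Comp were the most abundant, at 402 to 1034 and 41.0 to 109 FPKM over the 6 libraries. Col2a1 and Acan, which encode the main cartilage collagen and proteoglycan core, read 12.4 to 21.3 and 13.2 to 22.8 FPKM. The cartilage matrilins Matn1 and Matn3 reached at most 0.15 and 0.20 FPKM. The neutrophil genes S100a8 and S100a9 read 6440 FPKM or more in every library.

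Integrins are cell surface receptors made of an alpha and a beta chain that hold cells to matrix or to other cells. Leukocytes carry a family built on the beta2 chain Itgb2 (CD18), which pairs with Itgal (CD11a, forming LFA-1), Itgam (CD11b, forming Mac-1) or Itgax (CD11c), and the alpha4 chain Itga4, which pairs with Itgb1 to form VLA-4 or with Itgb7 for homing to the gut. Chemokine signals inside the cell switch these receptors on through talin and kindlin-3, the product of Fermt3, after which LFA-1 and Mac-1 bind ICAM molecules on endothelium and the leukocyte stops and crosses the vessel wall. Mac-1 is abundant on neutrophils and monocytes, and bone marrow beneath joint cartilage is rich in both.

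Of the 10 genes, 7 had a promoter entry in RefSeq (build GRCm38.p6). Itgb2, Itgal and Icam2 had none and were not searched. The 160 bases before the RefSeq start are shown for Itgam, which had the largest difference of the 10 between genotypes, for its neighbour Itgax, which had almost none, and for Icam1, the inducible ligand, each 5′ to 3′. Capitals mark GAGGAA or its reverse complement TTCCTC, a purine-rich core bound by the myeloid factor PU.1, and GGAAATTCC, a site of the kind bound by NF-kappaB.
Itgam, chr7:128062480-128062639, plus strand: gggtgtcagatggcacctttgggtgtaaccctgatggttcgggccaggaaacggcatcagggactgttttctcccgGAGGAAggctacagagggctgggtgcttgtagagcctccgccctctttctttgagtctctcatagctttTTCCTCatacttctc
Itgax, chr7:128129390-128129549, plus strand: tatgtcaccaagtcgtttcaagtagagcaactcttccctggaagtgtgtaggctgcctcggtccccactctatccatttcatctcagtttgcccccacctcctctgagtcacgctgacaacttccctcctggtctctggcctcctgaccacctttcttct
Icam1, chr9:21015780-21015939, plus strand: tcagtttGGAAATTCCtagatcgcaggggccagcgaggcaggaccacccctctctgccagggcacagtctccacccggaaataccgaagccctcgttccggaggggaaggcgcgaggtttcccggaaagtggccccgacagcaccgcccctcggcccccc
The Itgam window held GAGGAA from 84 to 79 bases before the start and its reverse complement from 15 to 10 bases before it. The Itgax window held neither motif, and Icam1 held GGAAATTCC from 153 to 145 bases before the start. Itgb1, not shown and at a log2 difference of -0.19, held GAGGAA from 9 to 4 bases before its start. A relation of the motifs to the differences was not tested. Over the full 300 bases that RefSeq gives per gene, searched on both strands, GAGGAA was in 28.3% of 32851 promoters and in 3 of the 7 (Itgam, Itgb1 and Itgb7), and GGAAATTCC was in 0.317% of promoters and in Icam1 alone of the 7. The motifs did not overlap each other. A match of letters is a description and not a measured binding site.

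In the wildtype libraries Itgb2 was the most abundant of the 10 transcripts at 111 ± 5.04 FPKM (mean ± SD, n = 3), a scale that corrects for transcript length. Itgb1, the beta chain shared by most cells, followed at 73.1 ± 2.18 FPKM, then Itgam at 59.9 ± 3.77 and Fermt3 at 45.7 ± 1.63. Itgb7 at 23.7 ± 3.94 and Itgal at 18.3 ± 2.48 overlapped across the 3 samples and so did not have a settled order. Below them stood Itga4 at 11.8 ± 2.24, Icam2 at 7.91 ± 0.138, Icam1 at 5.08 ± 0.877 and Itgax at 2.46 ± 0.638 FPKM. Apart from Itgb7 and Itgal, no pair of neighbours in this order overlapped. The beta2 chain and its Mac-1 partner were thus well above both ICAM ligands in FPKM.

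**Figure D1:**
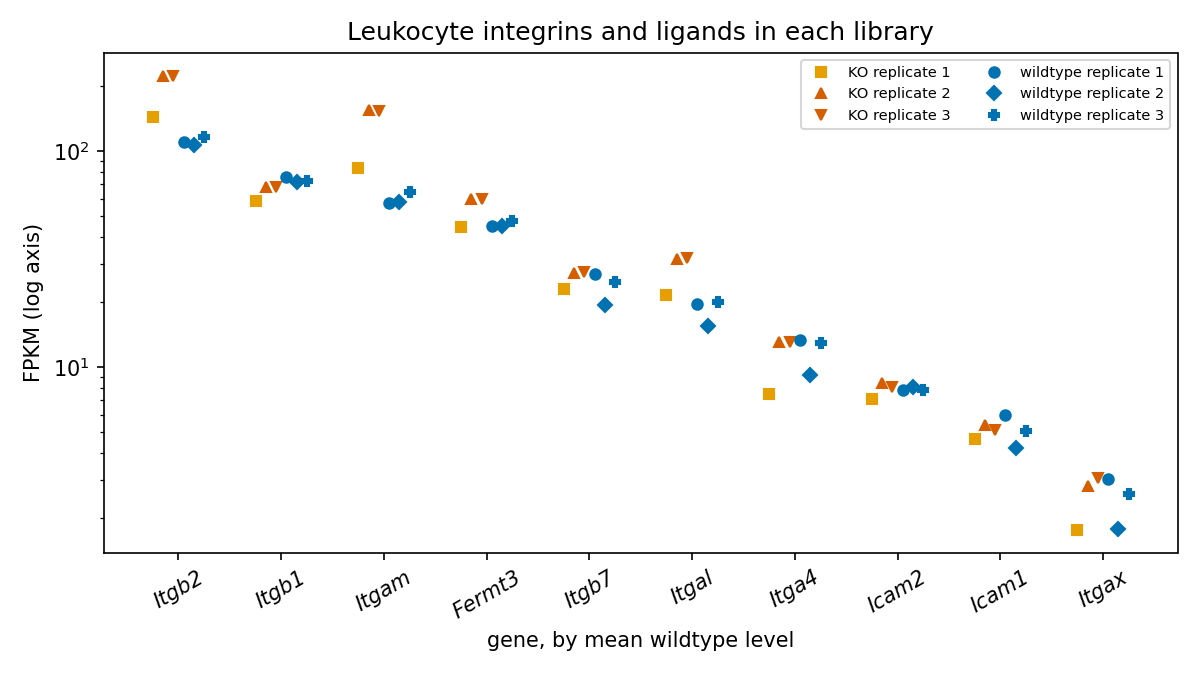
FPKM on a log axis for each of the 10 genes in each of the 6 libraries, with genes ordered by mean wildtype level and KO replicates 2 and 3 drawn separately. Itgam, Itgb2 and Itgal were higher in every KO library than in every wildtype library, Itgb1 was lower, and the other 6 genes overlapped.

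The comparison of KO with wildtype asks how loss of the gene alters expression in samples labelled articular cartilage, which also held neutrophil transcripts. In it the chains of Mac-1 and LFA-1 read higher in KO. The fitted excess was 1.98-fold for Itgam, 1.66-fold for Itgb2 and 1.47-fold for Itgal, while no difference of the 10 genes passed an adjusted p of 0.05 in edgeR's quasi-likelihood test. The same test called 0.00% of the 15373 genes tested at that threshold. At an unadjusted p under 0.05 it picked 3 of the 10 genes, all higher in KO, against 13.7% of all genes in either direction and 7.63% higher in KO. In bulk tissue, a change in the number of cells of a type and a change in RNA per cell cannot be told apart.

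Itgam (ENSMUSG00000030786, chr7:128062640-128118491, plus strand), the alpha chain of Mac-1, read 83.3, 154 and 153 FPKM in KO replicates 1, 2 and 3 and 57.4, 58.0 and 64.2 FPKM in wildtype replicates 1, 2 and 3. Every KO library lay above every wildtype library, with KO replicate 1 nearest to them. The mean was 118 ± 49.6 FPKM in KO (SD, n = 2) and 59.9 ± 3.77 in wildtype (n = 3). The log2 difference was 0.99 with an SE of 0.236, and edgeR gave an adjusted p of 0.175. A larger log2 difference was found in few genes, since Itgam stood at percentile 98.5 of all tested genes. A gene model on the same strand, Gm49368, overlaps Itgam at a mean of 2.32 FPKM, so a small share of reads may have been divided between them.

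Itgb2 (ENSMUSG00000000290, chr10:77530252-77565686, plus strand), the beta chain that all CD11 alpha chains need, read 144, 222 and 223 FPKM in the KO replicates and 110.1, 106 and 116 FPKM in the wildtype replicates. Again the groups did not overlap and KO replicate 1 was the lowest of the KO libraries. The log2 difference was 0.74 (SE 0.190), at percentile 96.5 of all tested genes, with an edgeR adjusted p of 0.186.

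Itgal (ENSMUSG00000030830, chr7:127296260-127335138, plus strand), the alpha chain of LFA-1, read 21.4, 31.5 and 32.0 FPKM in the KO replicates and 19.5, 15.4 and 19.9 FPKM in the wildtype replicates. KO replicate 1 was above the highest wildtype library by a small margin. The log2 difference was 0.55 (SE 0.174), at percentile 93.2, with an edgeR adjusted p of 0.240.

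The alpha chain genes Itgal, Itgam and Itgax lie in this order on chromosome 7, all on the plus strand. Itgax begins 11.1 kb after the end of Itgam, and Itgad, a further beta2-pairing alpha chain, begins 3.72 kb after Itgax. Itgax (chr7:128129547-128150657), the CD11c chain found on dendritic cells and some macrophages, read 1.76, 2.82 and 3.06 FPKM in the KO replicates and 3.03, 1.78 and 2.58 FPKM in the wildtype replicates. The groups overlapped across their whole range, and the log2 difference was -0.05 (SE 0.277). Itgad read 1.53, 1.60 and 2.11 FPKM in the KO replicates and 2.50, 3.22 and 5.52 FPKM in the wildtype replicates, so every KO library was below every wildtype library. Its log2 difference was -1.13 (SE 0.345) with an edgeR adjusted p of 0.230. None of these differences passed the adjusted threshold.

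Among the alpha4 integrins no gene passed the test at either threshold. Itga4 (chr2:79255426-79333123, plus strand) read 7.53, 13.03 and 12.99 FPKM in the KO replicates and 13.3, 9.22 and 12.9 FPKM in the wildtype replicates. KO replicate 1 was the lowest of the 6 libraries, while KO replicates 2 and 3 lay inside the wildtype range. The log2 difference was -0.19 (SE 0.232), and it turned to 0.11 when KO replicate 1 was left out. KO replicate 1 alone gave -0.56 against wildtype, from 1 KO library with no spread of its own.

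Itgb1 (chr8:128685654-128733200, plus strand), the beta chain of VLA-4 and of many matrix receptors, was the only gene of the 10 that was lower in every KO library. It read 58.7, 68.3 and 67.8 FPKM in the KO replicates and 75.6, 71.5 and 72.3 FPKM in the wildtype replicates. The log2 difference was -0.19 (SE 0.133) with an edgeR adjusted p of 0.620. Itgb7 (chr15:102215995-102231944, minus strand) read 23.1, 27.3 and 27.6 FPKM in the KO replicates and 27.0, 19.4 and 24.8 in the wildtype replicates, which overlapped. Its log2 difference was 0.11 (SE 0.149), and leaving out libraries moved it from 0.0068 without wildtype replicate 2 to 0.19 without wildtype replicate 1, with 0.18 without KO replicate 1 and 0.05 for KO replicate 1 alone. In all, 4 of the 10 genes did not overlap between genotypes, 3 higher and 1 lower in KO, where 12.5% of all tested genes were non-overlapping and higher and 16.0% non-overlapping and lower.

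The ligands showed the smallest differences. Icam1 (chr9:21015985-21028817, plus strand), which inflammatory signals induce on endothelium and other cells, read 4.65, 5.36 and 5.08 FPKM in the KO replicates and 5.98, 4.23 and 5.03 FPKM in the wildtype replicates. Icam2 (chr11:106377656-106388075, minus strand), a constitutive ligand of endothelium and platelets, read 7.11, 8.42 and 8.05 FPKM in KO and 7.83, 8.07 and 7.84 FPKM in wildtype. Both overlapped between genotypes, with log2 differences of -0.02 (SE 0.168) and -0.03 (SE 0.156). Fermt3 (chr19:6998958-7019469, minus strand), which blood cells need to activate their integrins, read 44.4, 59.6 and 60.1 FPKM in the KO replicates and 44.7, 44.7 and 47.5 FPKM in the wildtype replicates. KO replicate 1 lay just below the wildtype samples and KO replicates 2 and 3 lay above them, and the log2 difference was 0.20 (SE 0.153, edgeR adjusted p of 0.653). It was 0.35 without KO replicate 1 and 0.04 for KO replicate 1 alone.

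**Figure D2:**
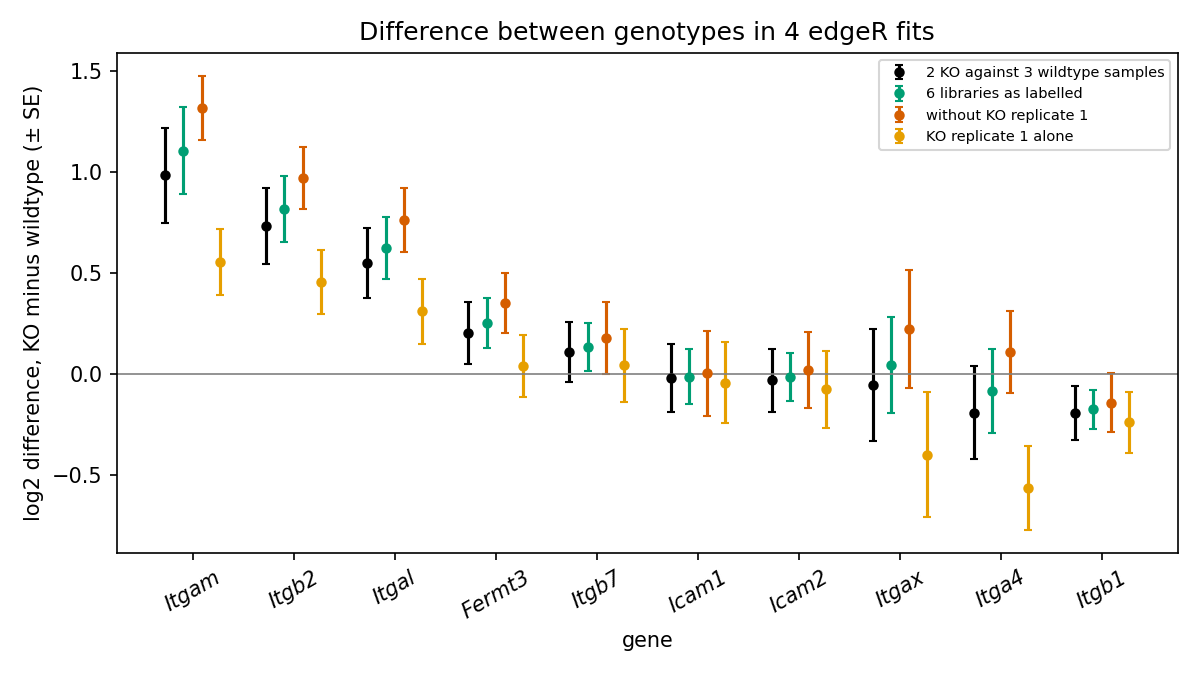
Log2 difference, KO minus wildtype, with its SE for each of the 10 genes under 4 edgeR fits: 2 KO against 3 wildtype samples, the 6 libraries as labelled, without KO replicate 1, and KO replicate 1 alone. Itgam, Itgb2 and Itgal lay above 0 in every fit, from 0.56 to 1.32, 0.46 to 0.97 and 0.31 to 0.76, and Itga4, Itgax, Icam1 and Icam2 changed sign between fits.

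The calls on Itgam and Itgb2 depended on how the KO libraries were treated. With all 6 libraries as labelled, both passed an adjusted p of 0.05 in edgeR (Itgam at log2 1.11 with an adjusted p of 0.0422, Itgb2 at 0.82 with 0.0435), as 2.46% of all tested genes did with a higher level in KO. Without KO replicate 1 the values were 1.32 (adjusted p of 0.0358) and 0.97 (adjusted p of 0.0434), and 1.70% of genes were called higher. DESeq2 on the 2 KO and 3 wildtype samples called the same pair, Itgam at 0.998 (adjusted p of 0.00302) and Itgb2 at 0.75 (adjusted p of 0.00604), with 3.45% of genes called higher. Itgal was called neither with the 6 libraries as labelled, at an edgeR adjusted p of 0.064, nor in DESeq2, at an adjusted p of 0.072. KO replicate 1 alone was above the wildtype mean by 1.39-fold in Itgam, 1.299-fold in Itgb2 and 1.17-fold in Itgal FPKM, where KO replicates 2 and 3 were above it by 2.56-fold, 2.01-fold and 1.74-fold.

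The KO samples differed from each other in the same direction across the whole set. All 10 genes had a higher FPKM in the mean of KO replicates 2 and 3 than in KO replicate 1, from 1.12-fold in Icam1, 1.16-fold in Icam2 and Itgb1 to 1.73-fold in Itga4 and 1.84-fold in Itgam. On the FPKM scale 59.7% of all tested genes did so. On the log2 CPM scale with TMM scaling all 10 were again higher, by a median of 0.39, against 50.2% of all tested genes. These are values of 2 samples and carry no test.

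Since LFA-1 and Mac-1 share Itgb2, the balance among the alpha chains was measured as ratios of FPKM within each library. Itgam to Itgb2 was 0.579, 0.693 and 0.685 in the KO replicates and 0.521, 0.547 and 0.553 in the wildtype replicates. All KO libraries were above all wildtype libraries, with a log2 difference of 0.22 (pooled SD 0.109), so Itgam exceeded wildtype by more than its partner chain did. Itgax to Itgb2 was 0.012, 0.013 and 0.014 in KO and 0.028, 0.017 and 0.022 in wildtype, lower in every KO library by a log2 difference of -0.78 (pooled SD 0.298). Itgal to Itgb2 overlapped, with a log2 difference of -0.17. Of the summed FPKM of the 3 alpha chains, Itgam made up 78.2% to 81.8% in KO and 71.8% to 77.1% in wildtype, and Itgax made up 1.497% to 1.65% in KO and 2.36% to 3.79% in wildtype. The summed alpha chains were 0.740, 0.847 and 0.842 of Itgb2 in KO and 0.726, 0.709 and 0.747 in wildtype, which overlapped.

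A two-sided exact permutation test of 2 against 3 samples has 10 arrangements and cannot go below p = 0.2, so no ratio could pass. Over the 13 ratios computed, those without overlap between the 6 libraries reached that smallest value, at an adjusted p of 0.325 in the exact permutation test. So did Itga4 to Itgb7, which overlapped over the 6 libraries. With the 6 libraries as labelled the smallest p in that test is 0.1. The ratios without overlap then gave an adjusted p of 0.186, and Itga4 to Itgb7 gave 0.236.

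Set against Ptprc (CD45, carried by nearly all nucleated leukocytes), the members lay on different sides. Ptprc itself read 22.7, 38.2 and 37.8 FPKM in the KO replicates and 23.9, 19.7 and 21.7 FPKM in the wildtype replicates, which overlapped, with a log2 difference of 0.49 (SE 0.214, edgeR adjusted p of 0.383). Itgam to Ptprc was 3.67, 4.03 and 4.04 in KO and 2.40, 2.94 and 2.96 in wildtype, higher in every KO library by a log2 difference of 0.48 (pooled SD 0.152). Itgb2 to Ptprc was higher in every KO library by 0.26 on the log2 scale (pooled SD 0.115). Itga4 to Ptprc was 0.332, 0.341 and 0.343 in KO and 0.556, 0.468 and 0.594 in wildtype. That ratio was lower in every KO library by a log2 difference of -0.67 (pooled SD 0.146), and KO replicate 1 had the lowest value of the 3. Itgax to Ptprc was also lower without overlap (log2 -0.52), while Itgal, Itgb7 and Fermt3 to Ptprc overlapped, at 0.09, -0.34 and -0.26. Without KO replicate 1 these became -0.0032, -0.58 and -0.42. Itgb7 to Itgb1, the beta chains that pair with Itga4, was 0.393, 0.399 and 0.407 in KO and 0.357, 0.271 and 0.342 in wildtype. It was higher in every KO library by 0.31 on the log2 scale (pooled SD 0.177), and by 0.19 without wildtype replicate 2. Most cells share Itgb1, so in bulk tissue this ratio does not show which chain Itga4 paired with. Itga4 to Itgb1 and to Itgb7 overlapped over the 6 libraries, at -0.02 and -0.33, and without KO replicate 1 these became 0.26 and -0.06.

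**Figure D3:**
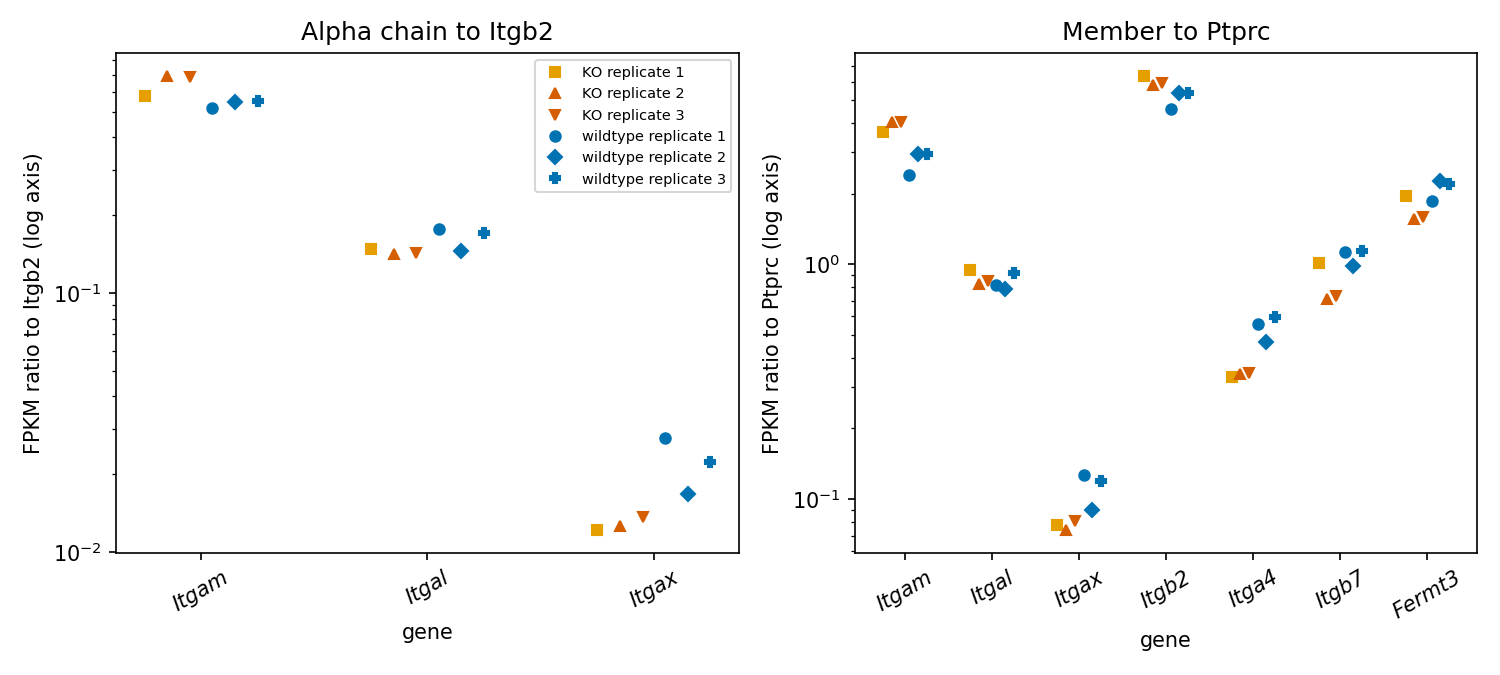
FPKM ratios on log axes in each library, with the alpha chains over Itgb2 on the left and 7 of the genes over Ptprc on the right. Itgam was higher and Itgax lower in every KO library in both panels, and Itga4 over Ptprc was lower in every KO library.

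The machinery that switches integrins on was followed in a list of 20 genes, of which 19 were tested. None was called at an adjusted p under 0.05, and 12 had a positive and 7 a negative log2 difference. The median was 0.12 (0.25 without KO replicate 1), beside -0.02 over all genes tested in the comparison of 2 KO with 3 wildtype samples. At an unadjusted p under 0.05, 3 were higher in KO and 1 lower. Over all genes tested, 13.7% passed that limit in either direction and 7.63% were higher in KO. Pxn (paxillin, an adaptor at adhesion sites) stood at log2 0.60 (SE 0.151, edgeR adjusted p of 0.182), with 22.5, 32.1 and 31.3 FPKM in the KO replicates and 17.8, 17.6 and 18.6 in the wildtype replicates, without overlap. With the 6 libraries as labelled Pxn was the only gene of the list that was called. Skap2 and Fyb, adaptors that carry signals to leukocyte integrins, stood at 0.44 and 0.41 (edgeR adjusted p of 0.296 and 0.340). Fermt2, the kindlin of non-blood cells and a relative of Fermt3, stood at -0.54 (edgeR adjusted p of 0.317), with 3.75, 2.98 and 2.90 FPKM in KO and 5.92, 4.65 and 4.30 FPKM in wildtype.

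Other integrin subunits, 13 tested of 19, had 4 positive and 9 negative differences with a median of -0.13. Itgad was the only one at an unadjusted p under 0.05, a limit that 13.7% of all tested genes passed. Other integrin ligands, 8 tested of 10, had 2 positive and 6 negative differences with a median of -0.31, which became -0.80 without KO replicate 1. Vcam1, the ligand of Itga4 with Itgb1, read 31.9, 28.2 and 27.7 FPKM in the KO replicates and 43.8, 38.1 and 51.1 FPKM in the wildtype replicates. It was lower in every KO library, with a log2 difference of -0.54 (SE 0.181, edgeR adjusted p of 0.264). No gene of either list was called at an adjusted p under 0.05. The median of the 10 leukocyte integrins and ligands was 0.05, and 0.20 without KO replicate 1.

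**Figure D4:**
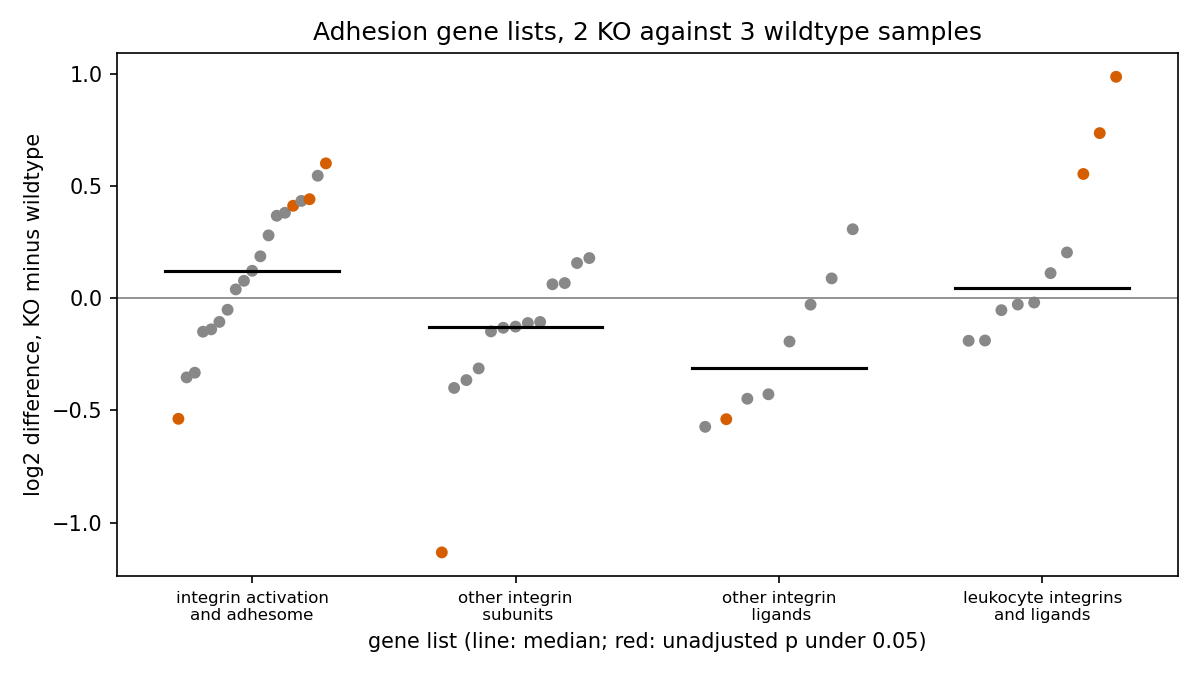
Log2 difference, KO minus wildtype, of each tested gene in the lists of integrin activation and adhesome genes, other integrin subunits and other integrin ligands, and in the 10 leukocyte integrins and ligands, from the edgeR fit of 2 KO against 3 wildtype samples, with a line at each list's median and red points for an unadjusted p under 0.05. Itgam at 0.99 was the highest and Itgad at -1.13 the lowest of the genes shown.

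Marker lists of the cell types that the tissue could hold were measured in the same libraries. All 12 neutrophil markers had a positive log2 difference, 9 of them at an unadjusted p under 0.05. Over all genes tested, 7.63% were higher in KO at that limit and 933 of 15373 were lower. The neutrophil median was 0.86 (1.06 without KO replicate 1). The neutrophil sum was 49437 to 60765 FPKM in KO and 25990 to 42423 FPKM in wildtype. All 10 B cell markers were lower in KO at the same limit, with a median of -1.39 (-1.67 without KO replicate 1). Their sums were 90.4 to 143 FPKM in KO and 286 to 321 FPKM in wildtype. Monocyte and macrophage markers had 5 positive and 5 negative differences, a median of -0.07 and sums of 552 to 567 FPKM in KO and 465 to 539 FPKM in wildtype. Within that list the inflammatory monocyte gene Ly6c2 read 218 to 248 FPKM in KO and 125 to 144 FPKM in wildtype, while the macrophage gene Mrc1, named after its values were seen, read 7.61 to 8.08 FPKM in KO and 10.3 to 15.4 FPKM in wildtype. KO replicate 1 had the highest neutrophil sum of the 6 libraries, 60765 FPKM, of which S100a8 and S100a9 made up 72.6%. Of the 12 neutrophil markers, 7 (Mpo, Elane, Prtn3, Ltf, Cxcr2, Csf3r and Mmp8, named after their values were seen) were lower in KO replicate 1 than in KO replicates 2 and 3, as Itgam and Itgb2 were, and 5 were higher.

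Of the 10 T and NK cell markers 9 had a negative difference (median -0.47), while their sum, led by Nkg7, was 96.7 to 117 FPKM in KO and 75.6 to 90.2 FPKM in wildtype. Erythroid markers, 7 of 7 negative, had a median of -0.68 (-1.04 without KO replicate 1). They summed to 11517 to 27111 FPKM in KO and 32838 to 48409 FPKM in wildtype. Endothelial markers, 8 of 8 negative with a median of -0.41, and dendritic cell markers, 5 of 7 negative with a median of -0.09, had sums that overlapped between genotypes, at 32.3 to 37.5 FPKM in KO and 35.5 to 53.0 FPKM in wildtype for the endothelial list and 32.5 to 38.2 and 34.1 to 36.4 FPKM for the dendritic cell list. The 12 chondrocyte markers summed to 1213 FPKM in KO replicate 1, 524 and 530 FPKM in KO replicates 2 and 3 and 542 to 714 FPKM in wildtype. Of the 9 chondrocyte markers tested the median was 0.04, and it was -0.60 without KO replicate 1. No marker list had a gene called at an adjusted p under 0.05 in the comparison of 2 KO with 3 wildtype samples, which called 0 of 15373 genes. With the 6 libraries as labelled, edgeR called 6 of 12 neutrophil markers, all higher in KO, and 9 of 10 B cell markers, all lower. It also called Ly6c2 (higher) and Mrc1 (lower), and no gene of the other marker lists. Over all tested genes, 2.46% were called higher and 192 of 15373 lower in that fit. The part of these cell types in the differences of the integrin genes was not tested.

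**Figure D5:**
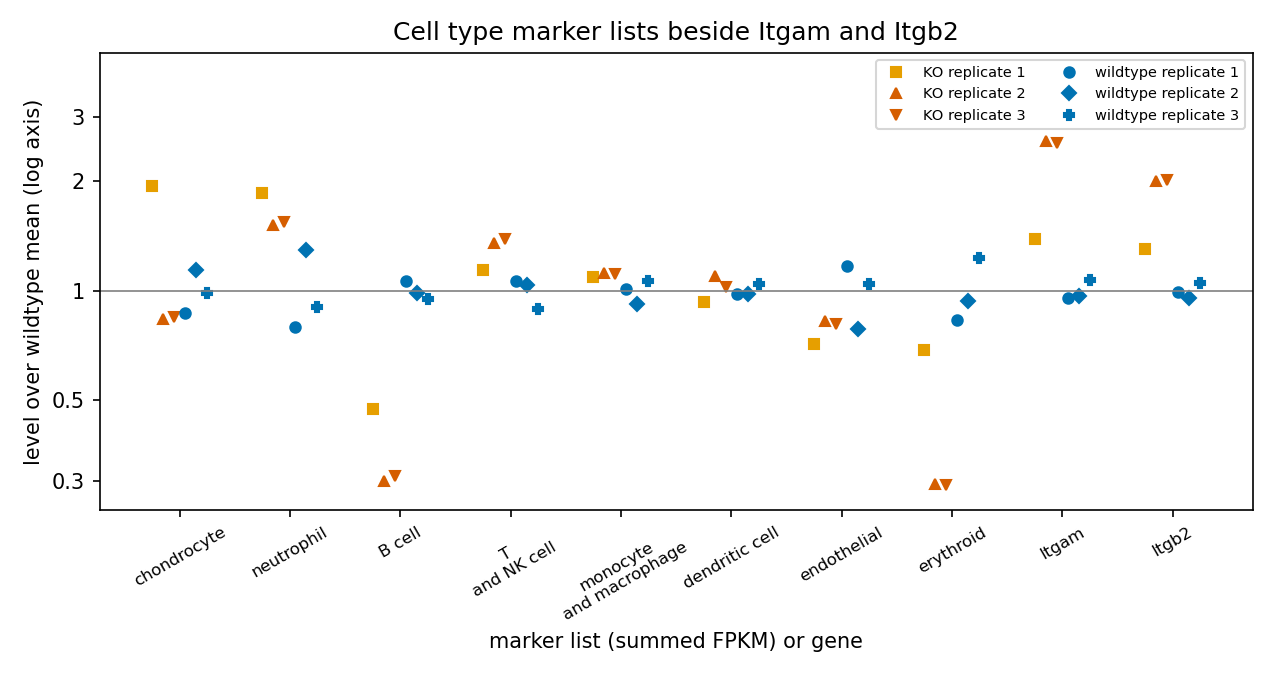
Summed FPKM of 8 cell type marker lists, and FPKM of Itgam and Itgb2, in each library as a multiple of the wildtype mean on a log axis. B cell and erythroid sums were below 1 and the neutrophil sums above 1 in all 3 KO libraries, and KO replicate 1 was above KO replicates 2 and 3 in the chondrocyte sum and in the neutrophil sum, which S100a8 and S100a9 dominate, and below them in Itgam and Itgb2.

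Among 7613 genes at a mean of at least 5 FPKM, the profile over the 5 samples that lay nearest to Itgb2 was that of Myo1f, a myosin of blood cells, at a root mean square distance of 0.017 on the centred log2 scale. Ccdc88b at 0.021, Gm49759 at 0.022, Eno1 at 0.029 and Pkm at 0.044 followed. Eno1 and Pkm encode glycolytic enzymes. Gm49759 overlaps Pkm on the same strand and Eno1 has a near-identical copy in the genome, so the values of these genes are uncertain. Myo1f read 51.8, 83.0 and 80.6 FPKM in the KO replicates and 39.4, 37.6 and 42.0 FPKM in the wildtype replicates, with KO replicate 1 between the other KO libraries and wildtype, as in Itgb2. The partner chains were farther away, Itgal at 0.130 (rank 213) and Itgam at 0.139 (rank 251), and Fermt3 stood at 0.262 (rank 1155). The 5 samples share the KO and wildtype contrast, so this likeness is a description only.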

How the data were processed

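RNA was captured with oligo(dT), and strand-marked libraries with molecular identifiers were sequenced as read pairs. The submitters' processing notes name cutadapt 1.9, HISAT2 2.0.4, UMI-tools, StringTie 1.3.4d, DESeq2 and edgeR. The build was not given in the sources used here, and 9 of 10 members had the start and end of the GRCm38 annotation. The authors deposited 1 table of FPKM values, scaled within each library, and estimated counts, which piled up at 4 (6596 values, against 4170 at 3 and 2332 at 5). The knocked-out gene is not reported here.

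The deposited estimated counts of 15373 genes (mean of at least 0.5 FPKM) were fitted with TMM scaling and the quasi-likelihood test of edgeR 4.0.16 (R 4.3.3), with Benjamini-Hochberg adjustment over all of them. DESeq2 1.42.0 and limma 3.58.1 were alternatives. A count of 0 allows up to 0.0574 CPM in the shallowest library, for counting error only. Members, lists and tests were chosen with earlier results of these data known. Genes named were the members, Ptprc, list genes at an unadjusted p under 0.05 (at most 5 a list, otherwise the 2 most abundant), the 2 most abundant of a marker list and the 5 nearest to Itgb2. Col2a1, Acan, Matn1 and Matn3 were named for the tissue check. The edgeR fit was tested on simulated counts, drawn independently for each sample with the spread estimated from these data. No simulated sample stood apart as KO replicate 1 did, so that situation was not tested.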

Additional observations from a re-analysis of the deposited data

How the results depend on the processing

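Itgam, Itgb2, Itgal, Fermt3, Itgb7 and Itgb1 kept their direction under all 16 alternatives. With libraries left out, Itgam ranged from 0.56 to 1.32, Itgb2 from 0.46 to 0.97 and Itgal from 0.31 to 0.76 on the log2 scale. Over all alternatives the adjusted p of Itgam ran from 0.00302 to 0.487 and that of Itgb2 from 0.00604 to 0.489. In edgeR 0 genes were called, with 2106 at an unadjusted p under 0.05. The count was 21 with no filter on low values, 879 in DESeq2 and 570 with 6 libraries as labelled, and with libraries left out it ran from 0 to 352, the highest without KO replicate 1. It was 9 for KO replicate 1 alone, and 1 without wildtype replicate 2 or 3. Members called were 2 in DESeq2 and with 6 libraries as labelled, and 0 to 2 with libraries left out, 2 without KO replicate 1. Members not overlapping were 7 without KO replicate 1 (6 higher and 1 lower in KO, where 66.2% of all tested genes did not overlap) and 8 without KO replicates 2 and 3 (3 higher and 5 lower, against 59.4%), a check added after seeing the data. Where 1 KO sample was left, it was assumed to vary like the others.

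The sign turned in the following uncalled genes, and the cause was not tested. Itgax was 0.046 with 6 libraries as labelled and with the replicate block (0.0455), 0.23 without KO replicate 1 and 0.10 without wildtype replicate 1, in a range of single leave-outs from -0.22. Itga4 was 0.11 without KO replicate 1, in a range from -0.32. Icam1 was 0.019 with no filter, 0.0070 without KO replicate 1, 0.00037 without KO replicate 3 and 0.090 without wildtype replicate 1, in a range from -0.11. Icam2 was 0.0086 with no filter, 0.021 without KO replicate 1 and 0.014 without wildtype replicate 2, in a range from -0.058. Without KO replicate 1 the log2 ratio of Itgam to Itgb2 was 0.35, of Itga4 to Itgb7 -0.06, of Itga4 to Itgb1 0.26 (0.07 with 6 libraries as labelled), of Itgb7 to Ptprc -0.58, of Fermt3 to Ptprc -0.42 and of Itgal to Ptprc -0.0032. The ratio of Itgal to Itgb2 was -0.26 without wildtype replicate 2.

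Same-numbered libraries had correlations of deviations of -0.14, -0.11 and -0.06. These values could not show whether the replicate numbers pair the samples, because the KO libraries that were averaged were nearly alike. With the replicate block on 6 libraries, 0 genes were called (2809 at an unadjusted p under 0.05), and Itgam was 1.07 (edgeR adjusted p of 0.089) and Itgb2 0.80 (0.104).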

Other observations

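Leukocytes roll on vessel walls before integrins arrest them, and Selplg encodes PSGL-1, a rolling ligand carried by leukocytes. It read 44.0, 66.9 and 66.2 FPKM in the KO replicates and 34.2, 38.6 and 36.6 FPKM in the wildtype replicates. The genotypes did not overlap, and KO replicate 1 was the lowest of the KO libraries. The log2 difference was 0.61, with an edgeR adjusted p of 0.217.

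The chains of the platelet receptor, Itga2b and Itgb3, were singled out after their values were seen. Itga2b read 31.2, 42.1 and 40.3 FPKM in the KO replicates and 40.2, 40.4 and 39.3 FPKM in the wildtype replicates. Itgb3 read 38.1, 64.8 and 61.3 FPKM in KO and 67.1, 48.9 and 53.4 FPKM in wildtype. Both overlapped between genotypes and were lowest in KO replicate 1, with log2 differences of -0.13 and -0.15.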
